A study of Mus musculus with 20 samples.

Results

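Transcribed enhancers at 5 loci of inflammatory cytokine genes were followed in mouse macrophages given interferon gamma (IFN-γ), CpG DNA or both. The enhancers were those of the deposited list of 11222 whose midpoint lay in one of 5 windows of 250 to 400 kb on mm39, set at Il1b and Il1a (chromosome 2), Il6 (chromosome 5), Il12b (chromosome 11), Il10 (chromosome 1) and Tnf and Lta (chromosome 17). The rule used position only, but the windows were chosen with earlier results of these data known. It gave 51 enhancers, 19 at the Il1b/Il1a locus, 3 at Il6, 3 at Il12b, 14 at Il10 and 12 at Tnf/Lta. The first and last of them started at positions 129104983 and 129396483 on chromosome 2, 30059419 and 30244776 on chromosome 5, 44367385 and 44386994 on chromosome 11, 130946122 and 131066922 on chromosome 1 and 35404832 and 35478115 on chromosome 17. Each is called here by its locus and its rank by position, so that Il6 e2 is the second enhancer of the Il6 window. The locus names are those of the windows: no enhancer was assigned to a gene, because the annotation at hand is of an older build than mm39, and overlap with promoters was not checked for the same reason. An enhancer of a window may therefore belong to another gene. In the older build the next protein-coding genes were Ckap2l and F830045P16Rik around Il1a and Il1b, and Dnajb6 and Tyms around Il6. They were Adra1b and Ublcp1 around Il12b, Il19 and Mapkapk2 around Il10, and Ltb and Nfkbil1 around Tnf and Lta.

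The cells were bone marrow-derived macrophages of C57BL/6 mice, grown with macrophage colony-stimulating factor, in 10 groups of 2 libraries described as biological replicates. They received IFN-γ with CpG ODN-1826 (called both stimuli below), CpG ODN-1826 alone or IFN-γ alone for 3, 9 or 15 h, or were left without these stimuli (0 h, unstimulated). The protocols also describe an exposure to IL-4 and IL-10 and a stimulation of another length. Whether either applied to these libraries is not stated. Stimulated cells of 3, 9 and 15 h had no untreated partner of the same age, so time in culture and stimulus cannot be told apart in a comparison with 0 h. The defining markers of macrophages could not be checked, since the table holds enhancers only. In such bulk libraries fewer transcribing cells and less RNA per cell cannot be told apart.

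Macrophages sense unmethylated CpG DNA through Toll-like receptor 9, which signals through MyD88 to NF-κB and AP-1, while IFN-γ acts through its own cell surface receptor. The cytokines of these loci are textbook products of activated macrophages. IL-1β and IL-1α, IL-6 and TNF promote inflammation, and lymphotoxin alpha, encoded by Lta, is a relative of TNF. IL-12 p40, encoded by Il12b, is shared by IL-12 and IL-23 and serves T cell polarization, whereas IL-10 restrains inflammation. Active enhancers are often transcribed in both directions into short capped RNAs, whose 5′ ends are counted by cap analysis of gene expression (CAGE).

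The stimulus itself is a short DNA, shown because it is the ligand compared with IFN-γ. It is written 5′ to 3′ with its 2 CG dinucleotides in capitals.
CpG ODN-1826: tccatgaCGttcctgaCGtt
Promoters of the cytokine genes were not measured, but the sequences at the start of Il6 and Il12b are shown because the summed tags of these 2 loci differed in opposite directions between CpG and IFN-γ. They are from RefSeq on GRCm38.p6, from 250 bases before to 50 bases after the gene start, on the plus strand at chr5:30012864-30013163 and chr11:44399813-44400112. These positions are not on the scale of the mm39 enhancer positions. Capitals mark matches, on either strand, to the κB core GGGANTT, which NF-κB sites hold, and to the AP-1 form TGANTCA.
Il6: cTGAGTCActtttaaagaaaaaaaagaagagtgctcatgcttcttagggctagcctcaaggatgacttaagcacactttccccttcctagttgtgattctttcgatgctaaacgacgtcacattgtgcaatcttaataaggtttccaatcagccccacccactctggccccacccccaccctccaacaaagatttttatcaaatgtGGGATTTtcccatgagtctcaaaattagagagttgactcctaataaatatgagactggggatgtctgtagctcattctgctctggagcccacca
Il12b: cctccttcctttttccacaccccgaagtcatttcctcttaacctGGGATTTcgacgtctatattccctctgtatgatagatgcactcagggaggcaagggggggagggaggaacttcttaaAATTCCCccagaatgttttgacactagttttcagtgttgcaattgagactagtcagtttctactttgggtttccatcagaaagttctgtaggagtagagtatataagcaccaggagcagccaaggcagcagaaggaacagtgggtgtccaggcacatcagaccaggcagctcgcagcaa
The Il6 window held 1 match to the κB core, starting 44 bases before the gene start, and 1 AP-1 match at its far end. The Il12b window held 2 matches to the κB core and none to the AP-1 form. The κB core occurred in 16.5% of 32544 promoter windows of this length and the AP-1 form in 7.79%. A match is a description of the letters, not of a bound factor. Of the 7 cytokine genes, 6 had a promoter in the table. Il10 did not. Il1b had 1 match to the κB core and none to the AP-1 form, and Il1a had 1 of each. Tnf and Lta had no match to either. A relation of these matches to the stimuli was not tested.

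Libraries held 12776280 to 13855472 tags in all, of which 12879 to 29794 lay in enhancers. Enhancer tags amounted to 991 RPM (tags scaled to the total tags of the whole library) in the lowest library, IFN-γ 3 h replicate 2, and 2202 RPM in the highest, both stimuli 3 h replicate 2. The chi-square between replicates, divided by its degrees of freedom, was 1.18 to 1.28, above the value of sampling noise alone. The 51 enhancers held 1735 of 402729 enhancer tags, with a median of 24 tags per enhancer over the 20 libraries (range 5 to 151), against a median of 21 over all 11222. Only 17 had enough tags for edgeR's test: 8 at Il1b/Il1a, 2 at Il6, none at Il12b, 1 at Il10 and 6 at Tnf/Lta. The others had 5 to 42 tags and are described by their counts. An enhancer with tags under a single stimulus passed this filter through that stimulus, so the counts below describe the tested enhancers and not all 51.

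At an edgeR adjusted p under 0.05, 12 of the 17 tested enhancers changed in at least 1 of 15 comparisons, or 70.6%, near the 73.1% of all 2792 tested enhancers. With both stimuli against unstimulated cells, 1 enhancer rose at 3 h, 4 at 9 h and 5 at 15 h. None was called lower, and the few tags in unstimulated libraries leave little room to detect a fall. Of all tested enhancers 18.4%, 14.1% and 15.6% rose there, and 27.4%, 22.3% and 25.3% changed in either direction. CpG raised 2 at 9 h and 1 at 15 h, where 4.48% and 4.55% of all tested rose and 6.98% and 7.59% changed. At 3 h of CpG edgeR called 0 of 17 (1.54% of all tested), with 4 at an unadjusted p under 0.05, and DESeq2 called 0 but gave an adjusted p for 1 of the 17 alone. IFN-γ raised 1 at 9 h, where 12.9% of all tested rose and 19.4% changed. None passed at 3 h of IFN-γ (10.5% of all tested) or 15 h (15.0%), with 4 and 1 at an unadjusted p under 0.05 by edgeR and 0 by DESeq2 at both times, out of 8 and 7 with an adjusted p.

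Between stimuli, taken as the mean over 3, 9 and 15 h, 8 of 17 differed for CpG against IFN-γ, or 47.1%, near the 42.6% of all tested enhancers. Of these 6 were higher and 2 lower with CpG, where 20.6% of all tested were higher and 22.0% lower. The median log2 difference was 0.87 over the 17 and 0.04 over all tested enhancers. Both stimuli against IFN-γ gave 2 higher enhancers (12.4% of all tested were higher and 21.4% changed), with medians of 0.96 and 0.07. Both stimuli against CpG gave 2 higher and 1 lower (17.9% and 12.1% of all tested, 30.1% together), with medians of -0.01 and 0.06. Tnf e3 could not be called in either of these 2 comparisons, since groups without tags stood on both sides (log2 SE 2739 and 1788). The same held for Il10 e13 with both stimuli against IFN-γ (SE 303). For CpG against IFN-γ, Tnf e3 also had no tag at 3 h on either side, so its lack of a call there decides nothing. At 15 h against 3 h, 2 enhancers rose with both stimuli (4.48% of all tested rose and 9.28% changed). CpG and IFN-γ gave 0 by edgeR between these times (0.645% and 1.04% of all tested), with 2 and 1 at an unadjusted p under 0.05 and 0 by DESeq2 for each.

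**Figure D1:**
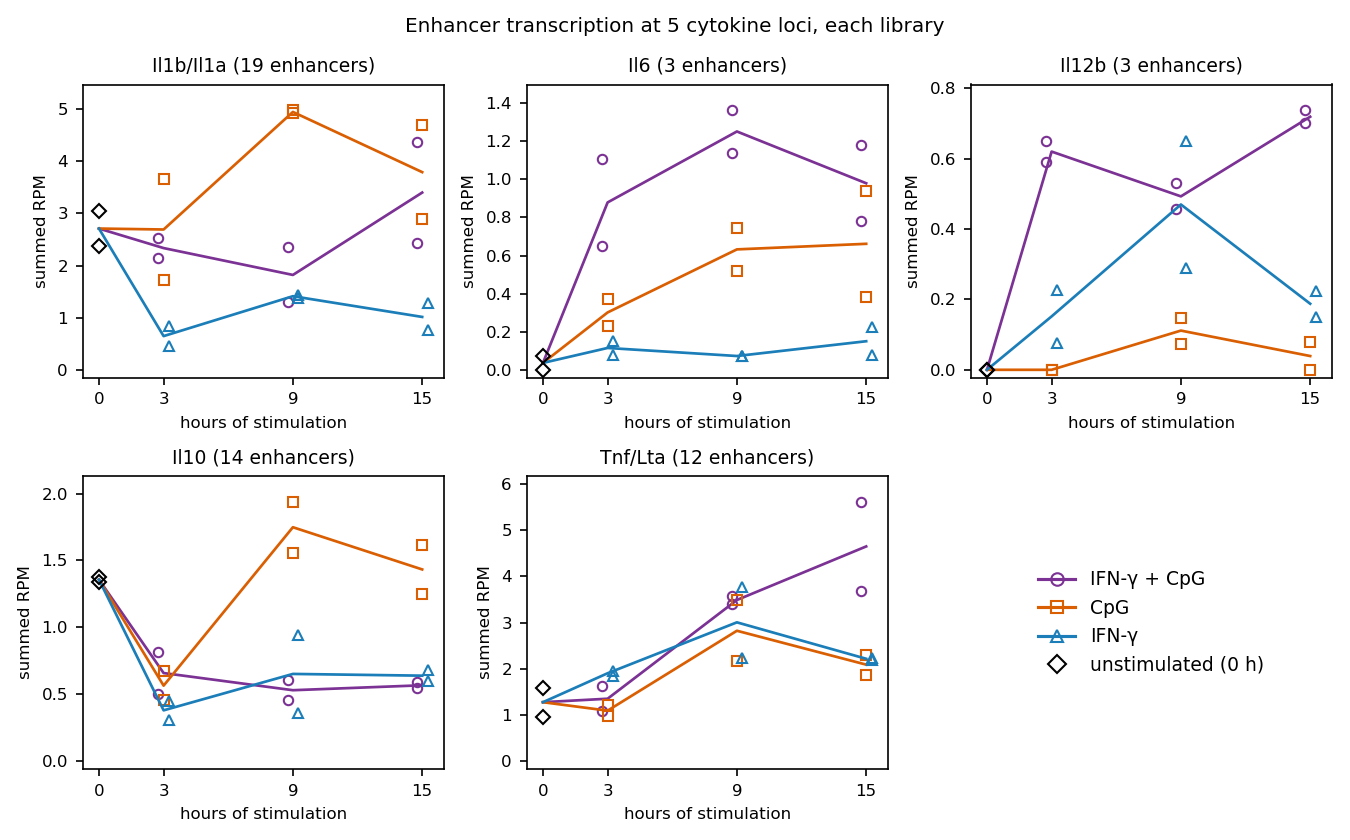
Summed RPM (vertical axes, a separate scale per panel) of all enhancers in each window against hours of stimulation; symbols are single libraries, lines join the means of 2 libraries and diamonds are the unstimulated libraries. The Il6 sums with both stimuli lie above those with IFN-γ at each time, the Il12b sum is 0 in unstimulated and in CpG 3 h libraries, and the Il10 sums with both stimuli and with IFN-γ lie below the unstimulated libraries at each time.

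At the Il1b/Il1a locus, which holds the genes of the 2 inflammatory IL-1 ligands, enhancer transcription was higher with CpG than with IFN-γ. The 19 enhancers together had 2.52 ± 1.01 RPM with both stimuli, 3.81 ± 1.31 RPM with CpG and 1.02 ± 0.397 RPM with IFN-γ (mean ± SD, n = 6 libraries each over the 3 times), and 2.71 ± 0.464 RPM in unstimulated cells (n = 2). Sums are descriptions here and carry no test. Both stimuli gave 35 and 29 tags at 3 h, 31 and 17 at 9 h and 33 and 56 at 15 h. CpG gave 23 and 48 tags at 3 h, 66 and 67 at 9 h and 61 and 37 at 15 h, IFN-γ gave 11 and 6, 20 and 19, and 10 and 17 tags, and unstimulated libraries had 42 and 32. The CpG libraries lay above the IFN-γ libraries at each of the 3 times without overlap, and the IFN-γ libraries lay below both unstimulated libraries at each time. The ratio of CpG to IFN-γ was 3.70 (95% counting interval 2.89 to 4.77), and 3.35 when each library was expressed per its own enhancer tags. The ratio of both stimuli to CpG was 0.658 (0.547 to 0.789). Their libraries did not overlap at 9 h but did at 3 and 15 h.

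By mean RPM, 17 of the 19 were higher with CpG than with IFN-γ (16 of 19 per enhancer tags), against 55.4% and 51.3% of all 11222 enhancers. With both stimuli 18 of the 19 were higher than with IFN-γ (16 of 19 per enhancer tags), against 62.3% and 51.4% of all. Of the 8 tested, 5 rose with CpG against IFN-γ and the other 3, Il1 e9, Il1 e14 and Il1 e16, did not pass the test. Of all tested enhancers 20.6% rose and 42.6% changed in this comparison. Il1 e1 (chr2:129104983-129105572) had 6 and 9 tags at 3 h, 6 and 5 at 9 h and 4 and 3 at 15 h with CpG. With IFN-γ it had tags in a single library, 2 at 9 h. All 6 CpG libraries thus lay above all 6 IFN-γ libraries, with 33 and 2 tags in all, a ratio of RPM of 16.8 (95% counting interval 4.29 to 144, edgeR adjusted p = 2.65e-05). Unstimulated libraries had 3 and 1 tags of it.

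Il1 e3 (chr2:129172466-129172939) was highest with CpG at 9 h, at 10 and 7 tags. It had 1 and 4 tags at 3 h and 2 and 3 at 15 h with CpG, and no more than 1 tag in any IFN-γ library. The CpG and IFN-γ libraries overlapped only at 1 tag. The sums of 27 tags with CpG and 2 with IFN-γ gave a ratio of 13.7 (3.45 to 119, adjusted p = 0.00286 by edgeR). It was also the only tested enhancer of these loci to fall with both stimuli against CpG, with 5 and 27 tags in all, -2.25 ± 0.80 on the log2 scale (± SE, as below; adjusted p = 0.0202 by edgeR). Il1 e3 was the enhancer most like Il1 e1 over the 20 libraries (Spearman's rho 0.655, where the 28 pairs of tested enhancers at this locus had a median of 0.318), in libraries that share their depth and stimulus.

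Another 3 enhancers were higher with CpG than with IFN-γ. Il1 e13 (chr2:129356204-129356601) had 29 and 5 tags in all (log2 difference 2.17 ± 0.69, adjusted p = 0.00604 by edgeR). Il1 e15 (chr2:129388480-129389122) had 14 and 2 tags, a ratio of 7.11 (1.63 to 64.5, adjusted p = 0.0172 by edgeR). Il1 e19 (chr2:129396483-129396758) had 25 and 8 tags, 1.60 ± 0.66 on the log2 scale (adjusted p = 0.0400 by edgeR). Single libraries of the 2 stimuli overlapped for each of these. With both stimuli against IFN-γ only Il1 e1 passed, with 14 and 2 tags (7.03, interval 1.61 to 63.7, edgeR adjusted p = 0.0223).

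The most abundant enhancer of this locus, Il1 e16 (chr2:129389404-129389713), had 86 tags and passed in no comparison. It had 28 tags with both stimuli, 25 with CpG and 15 with IFN-γ in 6 libraries each, and 11 and 7 tags in the unstimulated libraries, whose mean of 0.658 RPM was the highest of any group. Its largest unadjusted difference was with IFN-γ at 3 h, 3 and 0 tags against 11 and 7, -2.02 ± 0.86 on the log2 scale (edgeR adjusted p = 0.108). Among enhancers too low for the test, Il1 e2 had 15 tags with CpG and none with IFN-γ, and Il1 e4 had 25 and 1. Both were higher with CpG when all 11222 enhancers were fitted without a filter (edgeR adjusted p = 0.00850 and 0.00134), and they are named because they passed there. In that fit 13.2% of all enhancers changed in this comparison.

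Several of these calls were lost when 1 library was left out. Such fits tested 4098 to 4238 enhancers, not 2792, and called a smaller share of all, whichever library was left out. A loss therefore does not show that the call depended on the library named. Without CpG 3 h replicate 2 the CpG against IFN-γ calls of Il1 e3, e13 and e15 were lost (edgeR adjusted p = 0.0553, 0.160 and 0.0977), as was that of Il1 e15 without CpG 9 h replicate 2 (0.0585). That of Il1 e19 was lost without any of 8 of 12 libraries (CpG 3 h replicates 1 and 2, CpG 9 h and 15 h replicate 2, IFN-γ 3 h and 9 h replicate 1, IFN-γ 15 h replicates 1 and 2; edgeR adjusted p = 0.0617 to 0.176), while that of Il1 e1 held without each (3.47e-05 to 4.07e-04). The fall of Il1 e3 with both stimuli was lost without CpG 3 h, 15 h or both stimuli 15 h replicate 2, CpG 9 h replicate 1 or both stimuli 3 h replicate 1 (edgeR adjusted p = 0.0559 to 0.210). The rise of Il1 e1 with both stimuli against IFN-γ was lost without any of 7 libraries (IFN-γ 3 h or 15 h replicates 1 and 2, IFN-γ 9 h replicate 1, both stimuli 9 h replicate 1 and 15 h replicate 2). Without both stimuli 9 h replicate 1, groups without tags stood on both sides, so that fit cannot decide the call. DESeq2 passed Il1 e1 for CpG against IFN-γ (adjusted p = 0.00381) and none of the other calls at this locus that it could adjust (0.0608 to 0.175). Without a filter the calls of Il1 e1 for both stimuli against IFN-γ and of Il1 e19 were lost (0.0640 and 0.0849 by edgeR). Over 9 and 15 h alone those of Il1 e1 and Il1 e3 with both stimuli and of Il1 e15 and Il1 e19 were lost (0.0773, 0.0800, 0.140 and 0.231 by edgeR).

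**Figure D2:**
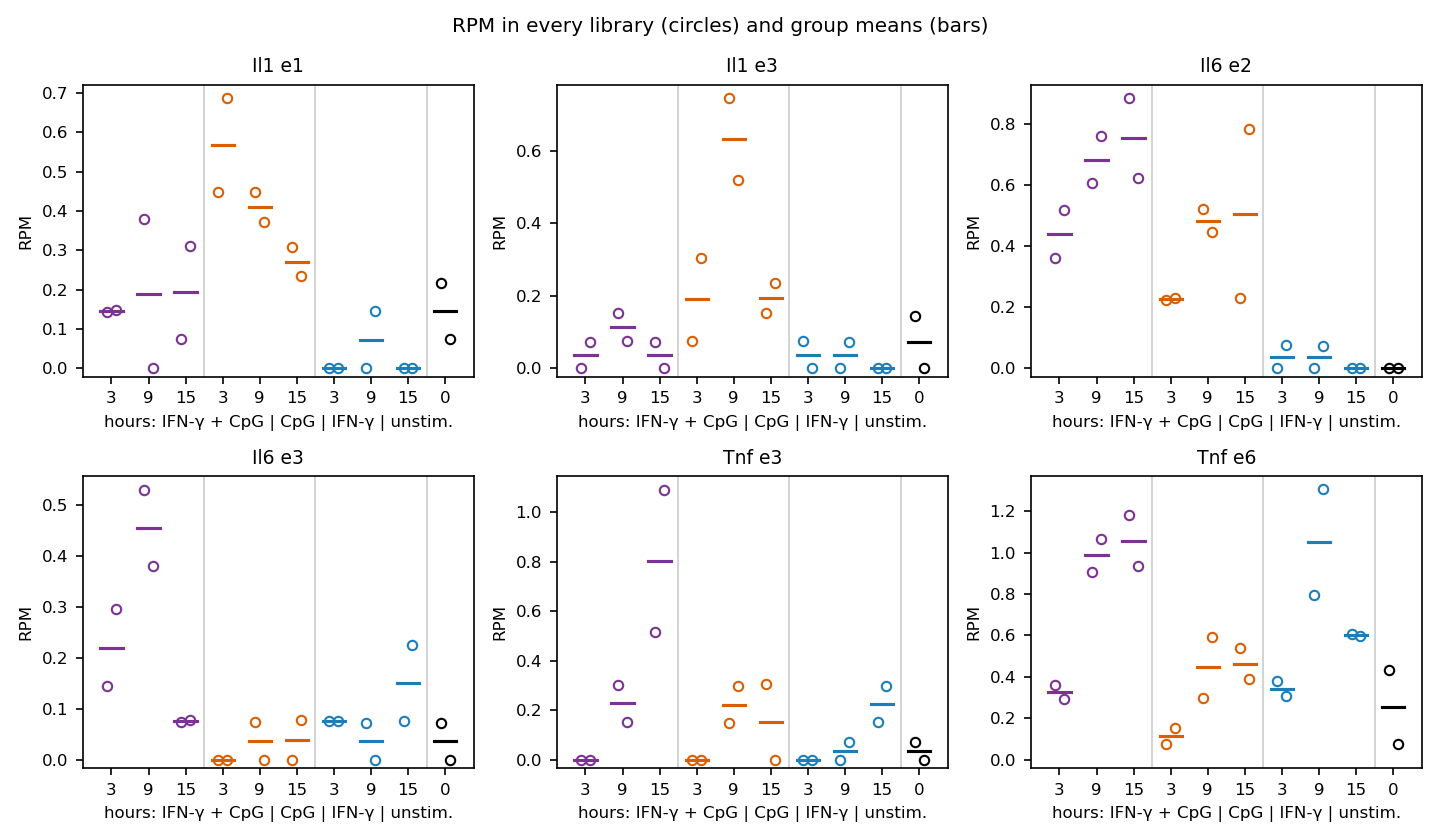
RPM in every library (circles) with the mean of 2 libraries (bars) for 6 enhancers; each panel runs from both stimuli through CpG and IFN-γ to unstimulated cells, with hours below. Il6 e2 has tags in each library with both stimuli and with CpG and none in unstimulated libraries, and Tnf e3 with both stimuli has no tag at 3 h and its highest values at 15 h.

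At the Il6 locus, named for the gene of the inflammatory cytokine IL-6, enhancers had few tags without CpG. The 3 enhancers together had 1.04 ± 0.268 RPM with both stimuli, 0.532 ± 0.265 RPM with CpG and 0.112 ± 0.0635 RPM with IFN-γ (n = 6 each), and 1 tag in the 2 unstimulated libraries. Both stimuli gave 9 and 15 tags at 3 h, 18 and 15 at 9 h and 16 and 10 at 15 h, CpG gave 5 and 3, 10 and 7, and 5 and 12, and IFN-γ gave 1 and 2, 1 and 1, and 1 and 3. Libraries with both stimuli lay above those with IFN-γ at all 3 times, and above those with CpG at 3 and 9 h but not at 15 h. The ratio of both stimuli to CpG was 1.95 (95% counting interval 1.33 to 2.90) and 1.79 per enhancer tags, and that of CpG to IFN-γ 4.74 (2.28 to 11.1).

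Il6 e2 (chr5:30066402-30066899) held 62.2% of the tags of the locus and changed in more comparisons than any other enhancer of the 5 loci. It had 5 and 7 tags at 3 h, 8 and 10 at 9 h and 12 and 8 at 15 h with both stimuli, and 3 and 3, 7 and 6, and 3 and 10 tags with CpG. With IFN-γ it had 1 tag at 3 h and 1 at 9 h, and unstimulated libraries had none. No library with CpG, alone or with IFN-γ, overlapped a library without it. With both stimuli it rose at 3, 9 and 15 h (by edgeR, adjusted p = 0.00316, 8.12e-05 and 1.52e-04). Its RPM there was 3.98, 6.21 and 6.89 times a floor of 3 tags over the pooled unstimulated libraries. With CpG it rose at 9 and 15 h (0.00621 and 0.00443 by edgeR), to 4.39 and 4.58 times this floor.

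Against IFN-γ, Il6 e2 had 50 and 2 tags with both stimuli, a ratio of RPM of 25.1 (6.59 to 213, edgeR adjusted p = 1.45e-07), and 32 and 2 tags with CpG, a ratio of 16.3 (4.15 to 140, 3.05e-05). These 2 calls, and those with both stimuli at 9 and 15 h, held without each library in turn. The other calls did not: with both stimuli at 3 h the call was lost without unstimulated replicate 1 (edgeR adjusted p = 0.0732), with CpG at 9 h without either unstimulated library or CpG 9 h replicate 1 (0.0652 to 0.143), and with CpG at 15 h without either unstimulated library or CpG 15 h replicate 2 (0.0871 to 0.249).

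Il6 e3 (chr5:30244776-30245130), 177877 bases from Il6 e2, had another pattern among the stimuli. It had 2 and 4 tags at 3 h, 7 and 5 at 9 h and 1 and 1 at 15 h with both stimuli, but 0 or 1 tag in each CpG library and 0 to 3 in each IFN-γ library. The 9 h libraries with both stimuli stood above all others. It rose with both stimuli at 9 h against unstimulated cells, with 12 and 1 tags (12.4-fold, 95% counting interval 1.84 to 531, edgeR adjusted p = 0.0382), and against CpG over the 3 times, with 20 and 2 tags (9.88-fold, 2.40 to 87.2, 0.0337 by edgeR). The first call was lost without any of the 4 libraries compared, both stimuli 9 h and unstimulated replicates 1 and 2 (0.115 to 0.225). The second was lost without any of 8 of 12 libraries (CpG 3 h replicates 1 and 2, 9 h replicate 2 and 15 h replicate 1, both stimuli 3 h replicate 2, 9 h replicate 1 and 15 h replicates 1 and 2; 0.0646 to 0.0817), and over 9 and 15 h alone (0.227). Without a filter both calls were lost (0.0878 and 0.0652 by edgeR), and with whole-library totals the first was (0.0664). Over the 20 libraries Il6 e2 and Il6 e3 had a Spearman's rho of 0.367. The untested Il6 e1 had 13 tags with both stimuli, 8 with CpG and none with IFN-γ or in unstimulated libraries, and in the fit without a filter it was higher with both stimuli than with IFN-γ (edgeR adjusted p = 0.0403). There 4% of all enhancers changed in this comparison.

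At the Il12b locus, named for the gene of the p40 subunit shared by IL-12 and IL-23, enhancer tags came mainly with IFN-γ present. The 3 enhancers had 49 tags with both stimuli, 4 with CpG and 22 with IFN-γ in 6 libraries each, and none in the 2 unstimulated libraries. Both stimuli gave 9 and 8 tags at 3 h, 7 and 6 at 9 h and 10 and 9 at 15 h, CpG gave 0 and 0, 1 and 2, and 0 and 1, and IFN-γ gave 3 and 1, 9 and 4, and 2 and 3. Libraries with both stimuli and with IFN-γ each lay above the CpG libraries at all 3 times. Those with both stimuli lay above those with IFN-γ at 3 and 15 h and overlapped them at 9 h.

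The mean was 0.611 ± 0.106 RPM with both stimuli, 0.0502 ± 0.0610 RPM with CpG and 0.270 ± 0.200 RPM with IFN-γ. The ratio of both stimuli to CpG was 12.1 (95% counting interval 4.44 to 46.2) and to IFN-γ 2.24 (1.33 to 3.88), and that of CpG to IFN-γ 0.185 (0.0463 to 0.544). Per enhancer tags these were 11.3, 1.81 and 0.160. The sums with both stimuli at 3, 9 and 15 h were 5.64, 4.48 and 6.54 times the same floor of 3 tags for unstimulated cells. The floor allows 3 tags in 2 libraries, so it is not shown that unstimulated cells lacked transcription here.

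None of the 3 Il12b enhancers reached the filter. Il12b e1 (chr11:44367385-44367529) had 22 tags with both stimuli, in all 6 libraries, 2 with CpG and 5 with IFN-γ. Il12b e2 (chr11:44369371-44369607) had 15, 2 and 4. Il12b e3 (chr11:44386994-44387182) had 12, 0 and 13 tags. The difference between the enhancers of this locus was not tested. When all 11222 enhancers were fitted without a filter, Il12b e1 was higher with both stimuli than with CpG (edgeR adjusted p = 0.00855) and than with IFN-γ (0.0306). In that fit Il12b e3 was higher with both stimuli than with CpG (0.0317) and lower with CpG than with IFN-γ (0.0111). Of all enhancers 7.44% changed there for both stimuli against CpG, 4% for both stimuli against IFN-γ and 13.2% for CpG against IFN-γ.

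**Figure D3:**
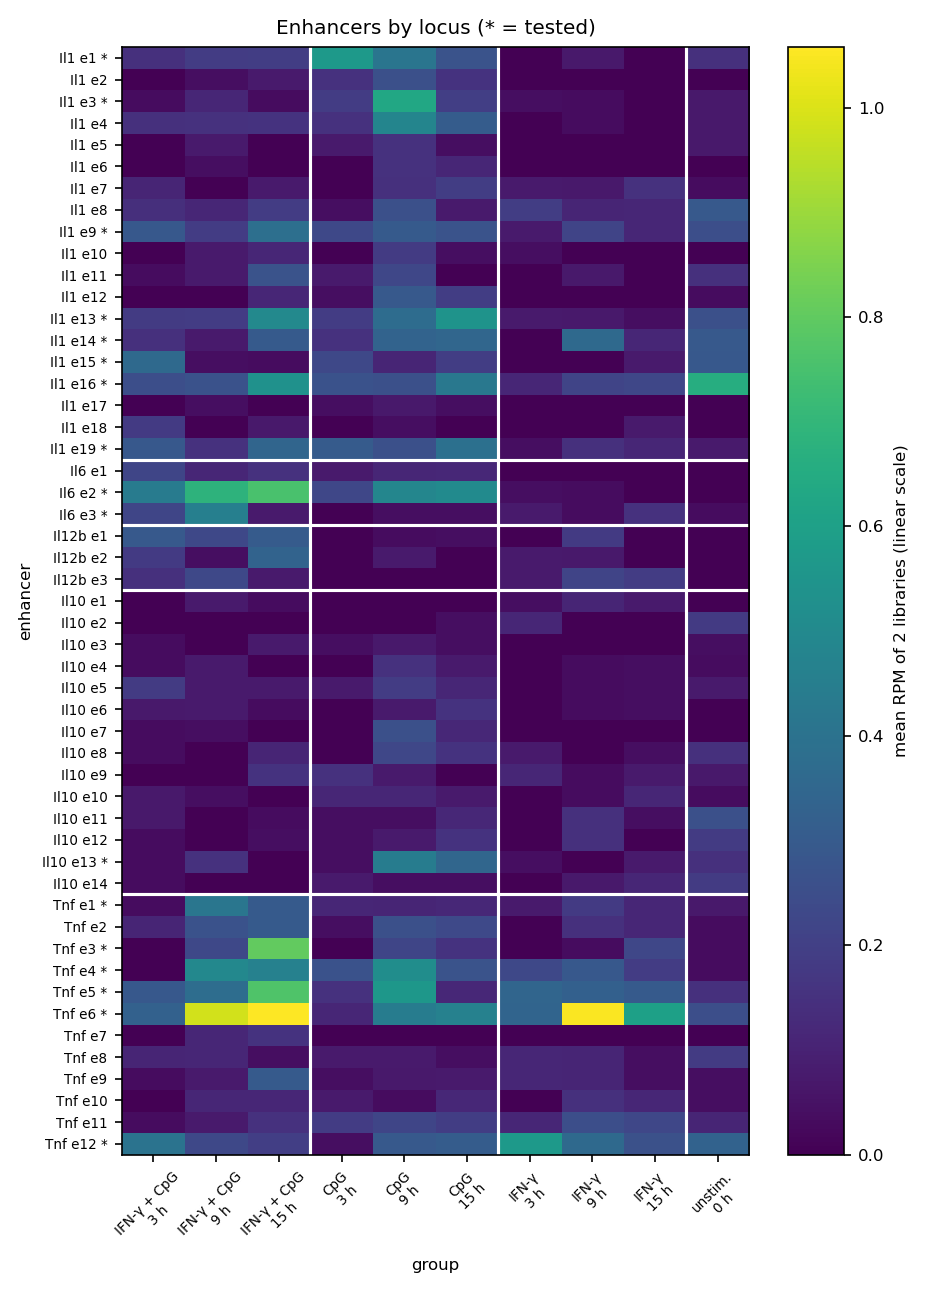
Mean RPM of 2 libraries (colour, linear scale) for each of the 51 enhancers (rows, by locus and position; an asterisk marks the 17 tested) in each group (columns). In 17 of 19 Il1b/Il1a rows the mean is higher under CpG than under IFN-γ, the Il12b rows are dark under CpG and in unstimulated cells, and Tnf e6 is the brightest row.

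At the Il10 locus, named for the gene of the anti-inflammatory cytokine IL-10, enhancer transcription was higher with CpG alone than with either treatment that contained IFN-γ. The 14 enhancers together had 0.586 ± 0.124 RPM with both stimuli, 1.25 ± 0.576 RPM with CpG and 0.558 ± 0.236 RPM with IFN-γ (n = 6 each), and 1.36 ± 0.0243 RPM in unstimulated cells (n = 2). With both stimuli the tags were 7 and 11 at 3 h, 8 and 6 at 9 h and 8 and 7 at 15 h, against 19 and 18 in unstimulated libraries. CpG gave 9 and 6 tags at 3 h, below both unstimulated libraries, then 26 and 21 at 9 h and 21 and 16 at 15 h. The 9 h CpG libraries lay above the unstimulated ones in RPM and the 15 h libraries overlapped them. All libraries with both stimuli and with IFN-γ lay below the unstimulated libraries at each time.

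The ratio of both stimuli to CpG was 0.469 (95% counting interval 0.324 to 0.670) and 0.421 per enhancer tags, and their libraries did not overlap at 9 and 15 h but did at 3 h. CpG against IFN-γ had a ratio of 2.24 (1.56 to 3.25) and 2.01 per enhancer tags. Both stimuli and IFN-γ were close, at 1.05 in RPM (0.682 to 1.61) and 0.848 per enhancer tags, so that the direction between them depends on the scale. By mean RPM, 13 of 14 enhancers were lower with both stimuli than with CpG on both scales, where 5119 of all 11222 were lower in RPM and 5649 per enhancer tags. With CpG 11 of 14 were higher than with IFN-γ (10 of 14 per enhancer tags), against 55.4% and 51.3% of all.

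Tags at this locus were thinly spread, at 8 to 34 per enhancer. The only one tested, Il10 e13 (chr1:131038497-131038929), had 0 to 2 tags in each library with both stimuli, 0 to 7 with CpG and 0 or 1 with IFN-γ. Its 22 tags with CpG came mainly from both 9 h libraries, with 5 and 7, and from 15 h replicate 1, with 7. It did not pass in any comparison. For CpG against IFN-γ the log2 difference was 2.41 ± 1.18 (edgeR adjusted p = 0.0863), and for both stimuli against CpG -2.24 ± 1.12 (0.115 by edgeR). IFN-γ at 9 h and both stimuli at 15 h had no tag of Il10 e13, so the counts do not fix the size of these log2 differences. The next most abundant, Il10 e5 (chr1:131017545-131017761), had 9 tags with both stimuli, 10 with CpG and 2 with IFN-γ, and 2 in unstimulated libraries.

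At the Tnf/Lta locus, which carries the genes of TNF and lymphotoxin alpha, enhancer transcription was above that of unstimulated cells with each treatment at 9 and 15 h. The 12 enhancers together had 3.17 ± 1.62 RPM with both stimuli, 2.00 ± 0.897 RPM with CpG and 2.38 ± 0.705 RPM with IFN-γ (n = 6 each), and 1.28 ± 0.441 RPM in unstimulated cells. Both stimuli gave 15 and 22 tags at 3 h, 45 and 47 at 9 h and 50 and 72 at 15 h, against 22 and 13 in unstimulated libraries. CpG gave 13 and 16, 29 and 47, and 30 and 24 tags, and IFN-γ gave 26 and 24, 31 and 52, and 29 and 30. At 3 h libraries with both stimuli and with CpG overlapped the unstimulated ones and those with IFN-γ lay above them, while at 9 and 15 h all stimulated libraries lay above them. The ratio to unstimulated cells at 15 h was 3.60 with both stimuli (95% counting interval 2.46 to 5.41), 1.63 with CpG (1.05 to 2.57) and 1.73 with IFN-γ (1.12 to 2.71), and per enhancer tags 3.02 with both stimuli, 1.68 with CpG and 2.1 with IFN-γ. With both stimuli the sum averaged 3.49 RPM at 9 h and 4.65 RPM at 15 h, but 25.7 and 24.7 tags per 10000 enhancer tags, so that the order of these 2 times depends on the scale.

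Tnf e6 (chr17:35429099-35429480) was the most abundant of all 51 enhancers, with 151 tags, and lies 25 bases from Tnf e5 (chr17:35428447-35429074), the second at this locus with 90. With both stimuli Tnf e6 had 5 and 4 tags at 3 h, 12 and 14 at 9 h and 16 and 12 at 15 h, and with CpG 1 and 2, 4 and 8, and 7 and 5. With IFN-γ it had 5 and 4, 11 and 18, and 8 and 8 tags, and in unstimulated libraries 6 and 1. The 9 and 15 h libraries with both stimuli and with IFN-γ lay above both unstimulated libraries, and the CpG libraries overlapped them.

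Tnf e6 rose with both stimuli at 9 h by 2.21 ± 0.61 and at 15 h by 1.92 ± 0.61 on the log2 scale (edgeR adjusted p = 0.00409 and 0.0113), and with IFN-γ at 9 h by 2.14 ± 0.60 (0.00555 by edgeR). Over the 3 times it was higher with both stimuli than with CpG, at 63 and 27 tags (log2 1.19 ± 0.40, edgeR adjusted p = 0.0152), and lower with CpG than with IFN-γ, at 27 and 54 tags (-1.20 ± 0.41, 0.0114 by edgeR). The other tested enhancer lower with CpG than with IFN-γ was Tnf e12 (chr17:35478115-35478396), which had 17 and 32 tags (-1.39 ± 0.55, 0.0312 by edgeR). At 3 h Tnf e12 had 0 and 1 tags with CpG and 9 and 6 with IFN-γ. The 2 stimuli overlapped at 9 h (2 and 6 against 3 and 7 tags) and at 15 h (5 and 3 against 3 and 4).

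At 15 h of both stimuli 3 enhancers of this locus rose beside Tnf e6. Tnf e3 (chr17:35409186-35409395) had 0 and 0 tags at 3 h, 4 and 2 at 9 h and 7 and 14 at 15 h with both stimuli, against 1 and 0 in unstimulated libraries. With CpG it had 0 and 0, 2 and 4, and 4 and 0 tags, and with IFN-γ 0 and 0, 0 and 1, and 2 and 4, so that no stimulated library had a tag of it at 3 h. The 15 h libraries with both stimuli stood above every other library. The ratio to unstimulated cells at 15 h was 21.7 (3.49 to 897, edgeR adjusted p = 0.00397). Against the 3 h libraries with both stimuli it rose (0.00179 by edgeR), to 7.26 times a floor of 3 tags at 3 h.

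Tnf e4 (chr17:35427191-35427651) had 0 and 0 tags at 3 h, 6 and 7 at 9 h and 2 and 10 at 15 h with both stimuli, and 1 and 0 tags in unstimulated libraries. At 3 h it had 3 and 4 tags with CpG and 3 and 3 with IFN-γ, so that the 3 h libraries with both stimuli lay below those with either stimulus alone; this difference was not tested. It rose with both stimuli at 9 h, with 13 and 1 tags (13.4-fold, 95% counting interval 2.02 to 571, edgeR adjusted p = 0.00729), and at 15 h, with 12 and 1 tags (12.4-fold, 1.83 to 530, 0.0242). With CpG it rose at 9 h, with 14 and 1 tags (14.2-fold, 2.16 to 600, 0.0280 by edgeR). From 3 to 15 h with both stimuli it rose to 4.15 times the same floor at 3 h (0.0106 by edgeR). Tnf e5 had 6 and 14 tags at 15 h with both stimuli and 3 and 1 in unstimulated libraries, 2.20 ± 0.77 on the log2 scale (0.0224 by edgeR).

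Calls at this locus were also lost when 1 library was left out, in fits that called a smaller share of all enhancers, as above. Of Tnf e6, unstimulated replicate 1 had 6 tags and replicate 2 had 1. Without unstimulated replicate 2, the calls against unstimulated cells were lost for Tnf e6 with both stimuli at 9 and 15 h and with IFN-γ at 9 h, Tnf e4 with both stimuli at 9 and 15 h and with CpG at 9 h, and Tnf e3 and e5 at 15 h (edgeR adjusted p = 0.0797 to 0.287). Without both stimuli 15 h replicate 2, the 15 h calls of Tnf e3, e4 and e5 were lost (0.108, 0.529 and 0.347), and the rises from 3 h of Tnf e3 and e4 (0.0841 and 0.352). Other losses were those of Tnf e6 without both stimuli 9 h replicate 2 (0.0830), both stimuli 15 h replicate 1 (0.128) or IFN-γ 9 h replicate 2 (0.105). Tnf e4 was lost without unstimulated replicate 1 with CpG at 9 h and both stimuli at 15 h (0.133 and 0.0816), without CpG 9 h replicates 1 or 2 (0.101 and 0.187) and without both stimuli 9 h replicate 2 (0.0836), and Tnf e5 without unstimulated replicate 1 (0.0813). The rises from 3 h were lost without both stimuli 3 h replicate 2 for Tnf e3 (0.0778) and without replicate 1 or 2 for Tnf e4 (0.113 and 0.169).

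Between stimuli, Tnf e6 was lost without both stimuli 3 h replicate 1 against CpG (edgeR adjusted p = 0.0736) and without CpG 3 h replicate 1 for CpG against IFN-γ (0.0550). Tnf e12 was lost without any of 7 of 12 libraries (CpG 3 h and 9 h replicate 1, CpG 15 h replicate 2, IFN-γ 3 h replicate 1, IFN-γ 9 h replicate 2, IFN-γ 15 h replicates 1 and 2; 0.0529 to 0.138). Over 9 and 15 h alone it had an adjusted p of 0.823 by edgeR. Over the 20 libraries the enhancers most alike at this locus were Tnf e1 and Tnf e6 (Spearman's rho 0.709, median of 15 pairs 0.448), which share library depth and stimulus. Tnf e1 passed in no comparison.

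DESeq2 did not pass the calls of Tnf e4 with both stimuli at 9 and 15 h and with CpG at 9 h, of Tnf e5 and of Tnf e12 (adjusted p = 0.0799, 0.133, 0.196, 0.101 and 0.101), and gave no adjusted p for Tnf e3 or for the rise of Tnf e4 between 3 and 15 h. Without a filter edgeR lost the calls of Tnf e4 with both stimuli at 15 h and with CpG at 9 h, of Tnf e5, of Tnf e6 with both stimuli at 15 h and of Tnf e12 (adjusted p = 0.0979, 0.128, 0.101, 0.0560 and 0.0801). That of Tnf e12 was also lost with whole-library totals (0.0689 by edgeR), and that of Tnf e6 for CpG against IFN-γ over 9 and 15 h alone (0.0504 by edgeR).

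**Figure D4:**
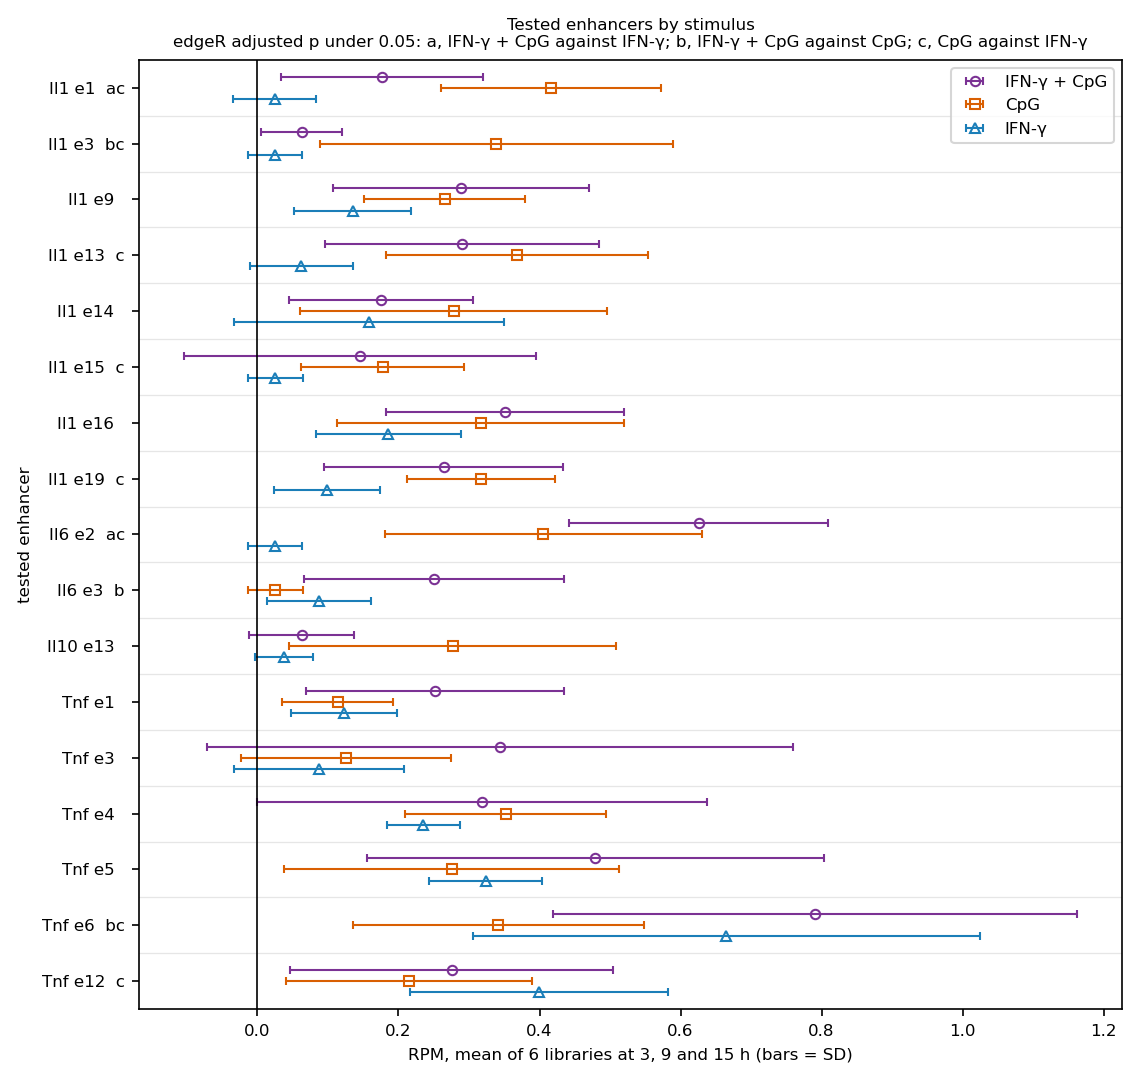
Mean RPM over the 6 libraries of each stimulus at 3, 9 and 15 h (symbols, with SD as bars) for the 17 tested enhancers; letters beside the names mark the comparisons with an edgeR adjusted p under 0.05. Il6 e2 and Tnf e6 have the highest means with both stimuli, and the 5 Il1b/Il1a enhancers marked c lie higher with CpG than with IFN-γ, while Tnf e6 and Tnf e12 lie lower.

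Set side by side, the loci ordered the 3 treatments differently. Over 6 libraries each, Il1b/Il1a had 201 tags with both stimuli, 302 with CpG and 83 with IFN-γ, and Il10 had 47, 99 and 45, so that CpG alone gave the highest sum at both. Libraries with CpG and with both stimuli overlapped at 3 and 15 h at Il1b/Il1a and at 3 h at Il10. Both stimuli gave the highest sum at Il6 (83 tags, 42 with CpG and 9 with IFN-γ), Il12b (49, 4 and 22) and Tnf/Lta (251, 159 and 192). The lowest sum came with IFN-γ at Il6 and Il1b/Il1a and with CpG at Il12b and Tnf/Lta. At Tnf/Lta both stimuli over IFN-γ had a ratio of 1.31 in RPM (1.08 to 1.59) and 1.08 per enhancer tags, and at 3 h the libraries with both stimuli, at 15 and 22 tags, lay below those with IFN-γ, at 26 and 24. There the interval of the ratio of CpG to IFN-γ was 0.678 to 1.04, and at Il10 the treatments with IFN-γ could not be ordered. Differences in this order between loci were not tested.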

How the data were processed

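Capped RNA 5′ ends were measured by nAnT-iCAGE, a form of CAGE without amplification, per the labels' protocols. The authors deposited raw tag counts of 11222 enhancers in 20 libraries. A second deposited table, which its name calls TPM, holds RPM: dividing count by value returned the same library total for each enhancer with a tag. The submitters' processing notes name FastQC 0.11.5, Trimmomatic 0.38, BWA 0.7.10, HISAT2 2.1.0 and mm39. The enhancer caller is not given in the sources used here, nor whether positions count from 0 or 1; they are printed as deposited.

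All enhancers were fitted together with edgeR 4.0.16 in R 4.3.3 (robust quasi-likelihood F-test, two-sided), with a coefficient for each group and TMM factors on enhancer tags, which left 10 degrees of freedom. The filter was filterByExpr with minimum count 5 and minimum total 15. Adjustment by Benjamini-Hochberg ran over 2792 enhancers, at 0.05, in each of 15 comparisons. The standard error is the log2 change over the square root of F. A fold against 0 tags takes 3 tags as the floor of that group, and where a group held 1 to 3 tags the RPM ratio has an exact 95% interval. A fold over the floor is not a confidence bound, since it leaves out the counting error of the other group. The interval covers counting error only. Levels are per enhancer, not per length. The common biological coefficient of variation was 17.8%. Scripts were tested on simulated data.

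Members, windows, motifs and tests were chosen with earlier results of these data known. Named enhancers are those called in a comparison (at most 6 per locus) and the 2 with the most tags at each locus. Il1 e2, Il1 e4, Il6 e1, Il12b e2 and Tnf e1, and those named only as not passing, fall outside this rule and were chosen after their values were seen. Alternatives were RLE factors, whole-library totals, DESeq2 1.42.0, no filter, stricter limits (count 10, total 30), a replicate block, each library left out and, added after seeing the data, the mean of 9 and 15 h alone. A group with 1 library left is assumed to vary like the others.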

Additional observations from a re-analysis of the deposited data

Results flagged for a closer look

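The response to both stimuli differed between 2 times for 2 enhancers of the Tnf/Lta locus by a test of the difference itself. Tnf e3 had 21 tags at 15 h and 0 at 3 h (edgeR adjusted p = 0.00179), and Tnf e4 had 12 and 0 (edgeR adjusted p = 0.0106). Both calls were lost without both stimuli 15 h replicate 2 (0.0841 and 0.352), the library that held 14 of the 21 tags of Tnf e3 and 10 of the 12 of Tnf e4. DESeq2 gave no adjusted p for either in this comparison. That library also had more enhancer tags than its replicate, 26745 against 22187. The part of this in the result was not tested. Groups held 2 libraries each, too few for a test of single outlying libraries.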

How the results depend on the processing

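No called difference of a named enhancer changed direction in any alternative run that gave it an adjusted p. Differences that were not called were not checked for direction. Counts of called enhancers among the 17 moved as follows, beside the share of all enhancers called in the same fit; the cause was not tested, except that the stricter filter left 2 of the 17 to test. DESeq2 called 2 with both stimuli at 9 h, 2 at 15 h and 0 for 15 h against 3 h (7.56%, 8.35% and 1.90% of all), but gave an adjusted p for 8, 8 and 2 of the 17 alone. With it CpG gave 1 at 9 h and 0 at 15 h (1.47% and 1.65%), from 6 and 1 with an adjusted p. It called 1 for both stimuli against IFN-γ, 1 for both stimuli against CpG and 3 for CpG against IFN-γ (9.17%, 15.6% and 26.1%), from 13, 13 and 17. Shares of all were thus lower than by edgeR in each of these comparisons too. Without a filter there were 3 with both stimuli at 9 h and 2 at 15 h (3.51% and 4.30% of 11222), and 1 with CpG at 9 h (0.659%). That fit gave 1, 2 and 6 for both stimuli against IFN-γ, both stimuli against CpG and CpG against IFN-γ (4%, 7.44% and 13.2%). The stricter filter gave 2 with both stimuli at 9 h, 2 at 15 h and 1 for 15 h against 3 h (41.4%, 41.7% and 27.3% of 758), 1 with CpG at 9 h (17.4%), and 1, 1 and 2 for both stimuli against IFN-γ, both stimuli against CpG and CpG against IFN-γ (34.6%, 48.9% and 58.4%). Whole-library totals gave 2 with IFN-γ at 3 h, both lower, and 2 at 9 h, 1 of them lower (11.2% and 17.4%). They gave 3 with both stimuli at 9 h, 3 for both stimuli against IFN-γ and 7 for CpG against IFN-γ (21.3%, 20.7% and 42.2%). Over 9 and 15 h alone there was 1 for both stimuli against IFN-γ, 2 for both stimuli against CpG and 5 for CpG against IFN-γ (21.0%, 18.3% and 37.3%). Over all 2792 tested enhancers, whole-library totals put the median log2 difference from unstimulated cells between -0.30 and 0.40.

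With each library left out in turn the filter kept 20 to 23 of the 51 enhancers and 4098 to 4238 of all. The counts over the former ranged as follows. Both stimuli gave 0 to 1 at 3 h, 1 to 3 at 9 h, 1 to 4 at 15 h and 0 to 2 for 15 h against 3 h, CpG gave 0 to 1 at 9 h as at 15 h, and IFN-γ 0 to 1 at 9 h. Both stimuli against IFN-γ gave 1 to 3, both stimuli against CpG 1 to 3, and CpG against IFN-γ 6 to 10. Among the 17 alone these last ranges were 1 to 2, 1 to 3 and 4 to 8, where 10.7% to 13.1%, 18.1% to 20.2% and 28.5% to 32.7% of all were called. Replicate numbers did not pair the libraries (correlations of replicate differences between groups -0.0529 to 0.0469 over 45 pairs of groups). With the replicate number as a block the counts were 1, 4 and 5 with both stimuli, 2 and 1 with CpG at 9 and 15 h and 8 for CpG against IFN-γ, as without it, and no call of a named enhancer was lost. At 5 to 151 tags per enhancer over 20 libraries, the absence of a call does not show that an enhancer was unchanged, nor that none fell.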
